A study of Mus musculus with 12 samples.

Results

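Transcripts of the adult hemoglobin chains and of the erythroid heme enzyme, 5 genes in all, were followed through 12 RNA libraries made from the lateral septum, a forebrain region, of mice. The 5 are Hba-a1 and Hba-a2, which encode the alpha chain, Hbb-bs and Hbb-bt, which encode the beta chain, and Alas2, which encodes the red cell form of 5-aminolevulinate synthase. They were chosen by name as a gauge of blood left in the tissue, out of 54532 genes in the deposited table. All 5 reached 1 FPKM in at least 6 libraries and were among the 13345 genes tested. FPKM counts sequenced fragments relative to both the length of a gene and the depth of its library.

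The 12 libraries were 6 from wild-type mice given CFA and 6 from wild-type mice given saline, all labelled day 3. The letters CFA usually stand for complete Freund's adjuvant, an oil emulsion with killed mycobacteria used to cause inflammation. Strain, age, injection site and any flushing of blood from the brain are not given in the labels used here, nor is it said that each library is a separate animal. The p-values therefore measure the spread between these libraries, which may be technical. Reads recovered from the FPKM steps summed to between 35.5 and 39.2 M in CFA libraries and between 33.6 and 38.4 M in saline libraries. The 9 markers of lateral septum neurons all reached the filter, among them Gad2 and Slc32a1 of GABA neurons and the transcription factor gene Zic1.

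Hemoglobin is a tetramer of alpha and beta chains, each of which holds a heme that binds oxygen. Circulating young red cells, the reticulocytes, have lost their nucleus but still carry globin messages, which make up most of their messenger RNA. Heme is built in steps that begin with 5-aminolevulinate synthase, whose ubiquitous form is encoded by Alas1 and whose erythroid form is encoded by Alas2. In bulk brain tissue these messages therefore mark blood in the vessels or on the tissue, although globin messages have also been described in some neurons and glia.

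The alpha genes lie on chromosome 11 of GRCm38 (mm10), Hba-a1 at 32283511 to 32284465 and Hba-a2 at 32296489 to 32297298, both on the plus strand. The beta genes lie on chromosome 7, Hbb-bs at 103826534 to 103828096 and Hbb-bt at 103812524 to 103813996, both on the minus strand. Alas2 lies on the X chromosome at 150547375 to 150570638, on the plus strand. All 5 are annotated as protein coding, and the coordinates of all 5 equalled those of GENCODE M21.

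Each chain is encoded by a pair of near-identical copies, which bears on how far the values of a pair can be told apart. In the main transcripts of GENCODE M21, the 429 coding bases of Hba-a1 and Hba-a2 differed at 1 base (99.8% identity), written C381T with the base of Hba-a1 first. The 444 coding bases of Hbb-bs and Hbb-bt also differed at 1 base (99.8% identity), C417T with the base of Hbb-bs first. Positions count from 1 at the first base of the start codon. The stretches of 41 bases around these positions are shown because they are the whole difference of the coding regions, with the differing base in capitals.
Hba-a1 coding: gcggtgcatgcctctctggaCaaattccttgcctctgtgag
Hba-a2 coding: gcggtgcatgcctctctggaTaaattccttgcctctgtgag
Hbb-bs coding: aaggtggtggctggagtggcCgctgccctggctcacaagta
Hbb-bt coding: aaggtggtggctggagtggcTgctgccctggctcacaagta
Reads were 150 bases long. Of the 405 stretches of 150 bases in the main transcript of Hba-a2, 65.7% also occurred in that of Hba-a1, and of the 550 in Hba-a1, 48.4% occurred in Hba-a2. Of the 479 stretches in Hbb-bs 58.7% occurred in Hbb-bt, and of the 554 in Hbb-bt 50.7% occurred in Hbb-bs. How the counting assigned reads that fit both copies is not given in the sources used here, so the split within each pair is uncertain. If such reads were kept, the sum of a pair is less exposed to this. If they were dropped, the sum lacks them too.

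The 250 bases before the RefSeq start of each gene (GRCm38.p6) are shown for 4 of the 5 because these genes moved together across libraries. Searched on both strands were CACCC, the core of sites for KLF1, and GATA, the core of sites for GATA1. Searched likewise were CCAAT and ATAAA, the latter being letters that a TATA box can hold. All are shown in capitals, with opposite-strand matches as their reverse complement. KLF1 and GATA1 are erythroid transcription factors. The windows are chr11:32283422-32283671 on the plus strand for Hba-a1, chr7:103827929-103828178 on the minus strand for Hbb-bs, chr7:103813924-103814173 on the minus strand for Hbb-bt and chrX:150547167-150547416 on the plus strand for Alas2. The gene coordinates given above begin upstream of these RefSeq starts, so each window lies partly inside the gene as annotated there.
Hba-a1 promoter: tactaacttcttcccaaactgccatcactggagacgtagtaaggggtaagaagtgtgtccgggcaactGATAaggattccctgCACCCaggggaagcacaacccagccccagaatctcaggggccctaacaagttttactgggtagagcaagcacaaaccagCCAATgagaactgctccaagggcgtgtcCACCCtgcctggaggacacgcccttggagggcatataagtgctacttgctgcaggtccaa
Hbb-bs promoter: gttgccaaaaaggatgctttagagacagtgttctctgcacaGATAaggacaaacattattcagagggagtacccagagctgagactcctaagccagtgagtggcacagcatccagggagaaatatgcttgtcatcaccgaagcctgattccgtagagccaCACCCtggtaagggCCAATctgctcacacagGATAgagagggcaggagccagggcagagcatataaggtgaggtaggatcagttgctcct
Hbb-bt promoter: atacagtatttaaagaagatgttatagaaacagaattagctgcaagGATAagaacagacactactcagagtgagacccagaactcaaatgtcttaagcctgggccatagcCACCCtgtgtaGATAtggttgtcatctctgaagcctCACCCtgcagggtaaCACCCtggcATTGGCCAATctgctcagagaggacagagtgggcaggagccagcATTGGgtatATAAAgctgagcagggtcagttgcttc
Alas2 promoter: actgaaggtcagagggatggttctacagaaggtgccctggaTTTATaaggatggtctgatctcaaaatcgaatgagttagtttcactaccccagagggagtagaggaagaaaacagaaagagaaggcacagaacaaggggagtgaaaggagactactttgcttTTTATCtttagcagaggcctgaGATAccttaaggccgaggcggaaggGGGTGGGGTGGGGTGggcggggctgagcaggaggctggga
The window of Hba-a2 shared an unbroken run of 247 bases with that of Hba-a1, so it is not shown. The longest run shared by the windows of Hbb-bs and Hbb-bt was 14 bases, although their coding regions differ at 1 base. CACCC and GATA occurred in all 5 windows and CCAAT in the 4 globin windows but not in that of Alas2. In Hba-a1 the CACCC nearest the start began 60 bases before it and CCAAT 88 bases before it, and in Hbb-bs these distances were 90 and 76 bases. In Alas2 the letters CACCC occurred 3 times in a row on the opposite strand, and a GATA and an ATAAA match on that strand overlapped. The ATAAA match of Hbb-bt began 27 bases before the start. The windows of Hba-a1 and Hbb-bs held no ATAAA, but both hold the letters catataag near the start, which were not searched for. The lack of an ATAAA match therefore does not show the lack of a TATA box. The ATAAA matches of Alas2 began 209 and 87 bases before the start, both on the opposite strand. These letters are common: of 32851 promoter windows of this length, 52.0% held the motif CACCC, 53.6% the motif GATA, 33.8% the motif CCAAT and 37.3% the motif ATAAA, and 8.67% held the first 3 of these motifs together. A match is a string of letters and shows no binding.

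The alpha chain transcripts were higher on average in CFA libraries, but with a wide spread. Hba-a1 was lowest at 28.5 FPKM, had a median of 168 FPKM and reached 223 FPKM in CFA libraries, against 56.4, 75.5 and 125 FPKM in saline libraries. Hba-a2 was lowest at 3.99 FPKM, had a median of 27.4 FPKM and reached 39.6 FPKM in CFA libraries, against 8.81, 12.8 and 18.7 FPKM in saline libraries. For both genes CFA 1, 2, 4 and 5 lay above every saline library, CFA 3 lay within the saline range and CFA 6 lay below every saline library, so the groups overlapped.

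The beta chain transcripts split the libraries in the same way. Hbb-bs, the most abundant of the 5, was 228, 328, 158, 255, 354 and 41.7 FPKM in CFA 1 to 6, against 132, 71.3, 79.6, 164, 109 and 117 FPKM in saline 1 to 6. Hbb-bt was lowest at 3.90 FPKM, had a median of 25.3 FPKM and reached 46.8 FPKM in CFA libraries, against 8.17, 13.5 and 22.3 FPKM in saline libraries. Again CFA 1, 2, 4 and 5 stood above all saline libraries and CFA 6 below them, and CFA 3 was just under saline 4, the highest saline library.

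Alas2, the rate-setting enzyme of heme synthesis in red cell precursors, was the least abundant of the 5. It was 4.80, 10.3, 3.35, 5.83, 8.95 and 0.771 FPKM in CFA 1 to 6, against 2.82, 1.46, 1.80, 3.25, 1.95 and 2.17 FPKM in saline 1 to 6. In this gene CFA 3 also exceeded saline 4, so 5 of 6 CFA libraries lay above every saline library and CFA 6 lay below every saline library. The fewest recovered reads behind any of these values were 69, for Alas2 in CFA 6, and the most were 10695, for Hbb-bs in CFA 5, so counting error was small beside the differences between libraries.

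**Figure D1:**
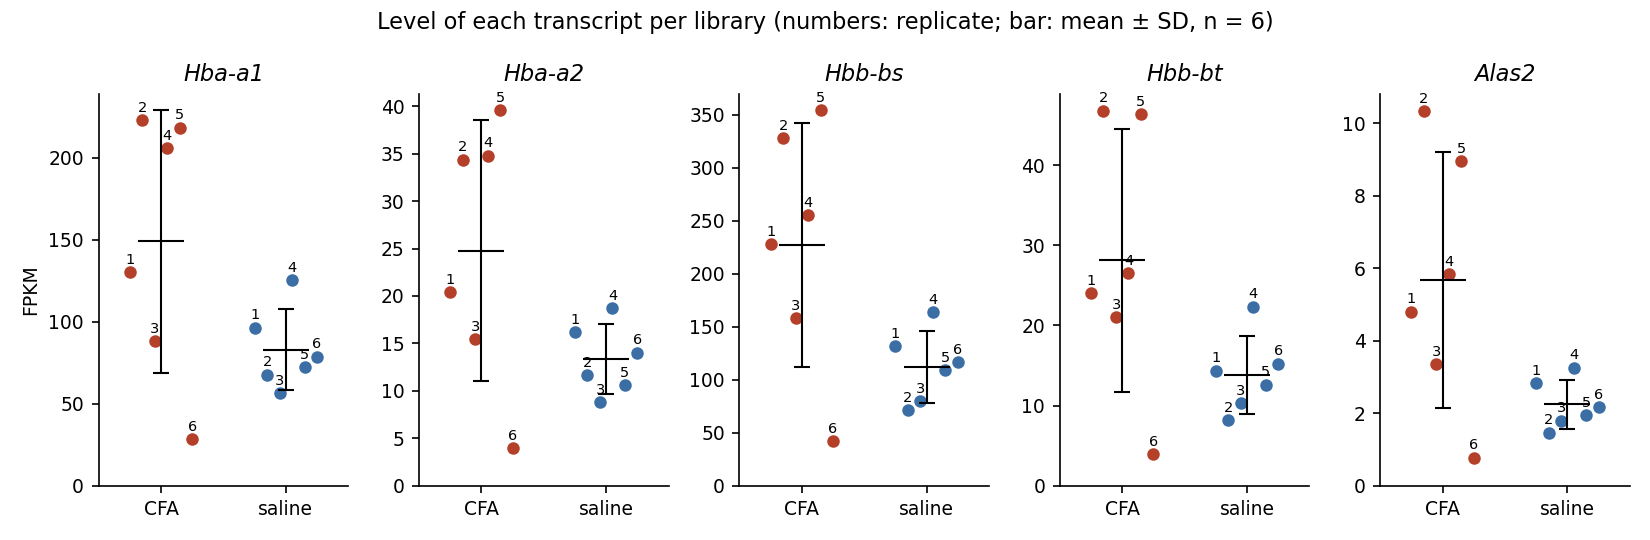
FPKM of each of the 5 transcripts in the 6 CFA libraries (left, red) and the 6 saline libraries (right, blue), with numbers for the replicate and bars for the mean and SD. In every panel CFA 6 is the lowest library and CFA 1, 2, 4 and 5 lie above all saline libraries, so that Hbb-bs runs between 41.7 and 354 FPKM in CFA libraries and between 71.3 and 164 FPKM in saline libraries.

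The comparison of the groups asked whether the CFA and saline libraries differed in these transcripts. Mean levels were 149 ± 80.2 FPKM in CFA and 82.8 ± 24.7 FPKM in saline libraries for Hba-a1, and 24.8 ± 13.8 against 13.3 ± 3.70 FPKM for Hba-a2 (SD, n = 6 each). They were 227 ± 115 against 112 ± 34.1 FPKM for Hbb-bs, 28.1 ± 16.4 against 13.8 ± 4.91 FPKM for Hbb-bt and 5.67 ± 3.54 against 2.24 ± 0.672 FPKM for Alas2, CFA first (SD, n = 6 each). The ratios of the means, CFA over saline, ran between 1.80 for Hba-a1 and 2.53 for Alas2.

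None of the 5 differences passed the threshold. By limma on log2(FPKM + 1), with Benjamini-Hochberg adjustment over all 13345 genes tested, 0 of 5 had an adjusted p under 0.05, where 0.0300% of all genes tested did and 0.0150% did with a higher level in CFA. By voom on the recovered reads 0 of 5 did too. Hbb-bs had a log2 difference of 0.80 (SE 0.43, 95% interval -0.12 to 1.73, adjusted p = 0.709; exact permutation p = 0.136 over 924 assignments, two-sided). Alas2 had 0.84 (SE 0.36, 95% interval 0.07 to 1.61, adjusted p = 0.624; exact permutation p = 0.0758). Hba-a1 (0.60, interval -0.31 to 1.52, adjusted p = 0.779), Hba-a2 (0.60, interval -0.31 to 1.52, adjusted p = 0.779) and Hbb-bt (0.73, interval -0.25 to 1.71, adjusted p = 0.761) had intervals that reach beyond a doubling as well as below no change. At an unadjusted p under 0.05 there was 1 of the 5, Alas2, where 7.67% of all genes tested were and 3.11% were with a higher level in CFA.

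All 5 differences were positive, where 48.0% of all genes tested were, and their median was 0.73 against -0.00427 over all genes tested. Because the 5 transcripts vary together, these are not 5 separate observations. For each of the 5, at least 4 of 6 CFA libraries lay above every saline library, where 5.35% of all genes tested had that pattern, which was picked after the values were seen. The groups were free of overlap in 0 of 5, where 0.495% of all genes tested were.

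The differences were larger and their intervals narrower when CFA 6, the lowest library, was left out. Without CFA 6 the log2 difference was 1.23 for Hbb-bs (adjusted p = 0.212), 1.18 for Hbb-bt (adjusted p = 0.245), 1.02 for Hba-a1 (adjusted p = 0.317), 1.02 for Hba-a2 (adjusted p = 0.287) and 1.18 for Alas2 (adjusted p = 0.212) by limma. The ratios of the means, 5 CFA libraries over 6 saline libraries, were then between 2.09 for Hba-a1 and 2.97 for Alas2. CFA 6 is singled out here by its low values, so these are descriptions, and none of the 5 passed the threshold without it either.

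**Figure D2:**
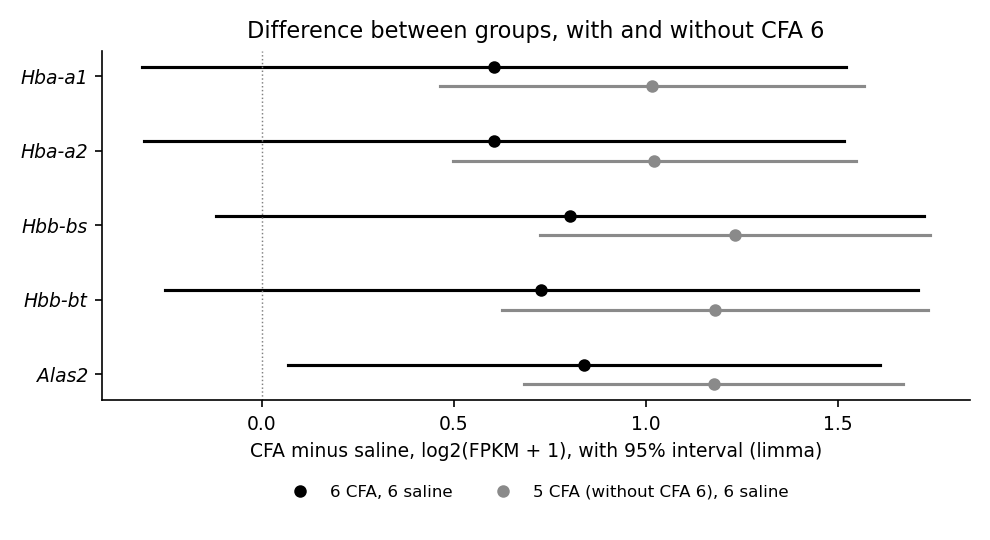
CFA minus saline difference of log2(FPKM + 1) for each transcript with its 95% interval from limma, over all 12 libraries (black) and without CFA 6 (grey). Over all libraries the values lie between 0.60 and 0.84 and 4 of 5 intervals include 0; without CFA 6 they lie between 1.02 and 1.23 with narrower intervals.

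The share of all recovered reads that fell in the 4 globin transcripts was small in every library. It averaged 0.0334% ± 0.0173 in CFA libraries and 0.0172% ± 0.00510 in saline libraries (SD, n = 6 each). In CFA libraries it was highest in CFA 5, at 0.0517% (Wilson 95% interval 0.0510 to 0.0524%), and lowest in CFA 6, at 0.00626% (0.00601 to 0.00652%). In saline libraries it was highest in saline 4, at 0.0256% (0.0251 to 0.0262%), and lowest in saline 2, at 0.0122% (0.0119 to 0.0126%), whose interval overlapped that of saline 3. These intervals cover counting error only. The highest share was 8.26 times the lowest among CFA libraries and 2.10 times the lowest among saline libraries, and with the globin reads taken out of the library totals the log2 differences of the 5 ran between 0.60 and 0.84, as they did with them.

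The spread itself set these transcripts apart from most genes. The SD of log2(FPKM + 1) over CFA libraries was between 0.97 for Alas2 and 1.20 for Hbb-bt, against a median of 0.13 over all genes tested. In saline libraries it was between 0.29 for Alas2 and 0.46 for Hbb-bt, against a median of 0.10. By this SD all 5 ranked between place 18 and place 35 of 13345 in CFA libraries and between place 274 and place 830 in saline libraries. In FPKM, the highest CFA library held between 7.83 times (Hba-a1) and 13.4 times (Alas2) the lowest, and the highest saline library between 2.12 times (Hba-a2) and 2.73 times (Hbb-bt) the lowest. These CFA values all include CFA 6, the lowest library. Without CFA 6 the 5 remaining CFA libraries ran between 158 and 354 FPKM for Hbb-bs, against 71.3 to 164 FPKM in the 6 saline libraries. Places by SD were not computed without CFA 6, so how far the CFA spread rests on this library was not tested.

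The 5 transcripts followed each other closely from library to library. Against Hbb-bs across the 12 libraries, Pearson's r of log2(FPKM + 1) was 0.987 for Hbb-bt (Spearman's rho 0.986), 0.975 for Alas2 (rho 0.986), 0.974 for Hba-a1 (rho 0.979) and 0.967 for Hba-a2 (rho 0.965). For each r the permutation p was 1e-05, the smallest that 100000 permutations can give, and 3e-05 after Benjamini-Hochberg adjustment over the 12 relations computed. For rho the permutation p was 1e-05 for Hbb-bt, Alas2 and Hba-a1 and 2e-05 for Hba-a2, and the adjusted p was 4e-05 and 6e-05. Without CFA 6 and CFA 5, the libraries farthest from the median of Hbb-bs, r lay between 0.933 and 0.974. Within the CFA libraries r lay between 0.978 and 0.989 and within the saline libraries between 0.837 and 0.968. Copies of a pair can share reads. Whether alpha, beta and Alas2 transcripts share any with each other was not tested.

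**Figure D3:**
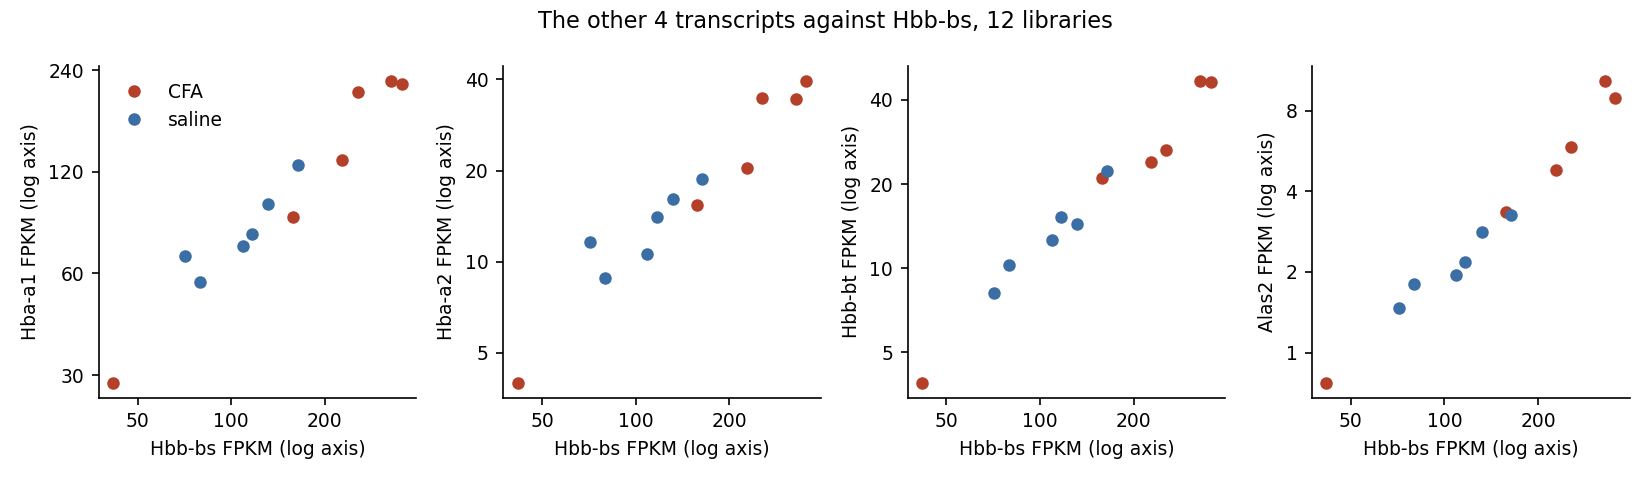
FPKM of Hba-a1, Hba-a2, Hbb-bt and Alas2 against FPKM of Hbb-bs in the 6 CFA (red) and 6 saline (blue) libraries, on log axes. Points of both groups lie along a single rising line in each panel, with r between 0.967 and 0.987, and the lowest point is CFA 6.

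**Figure D4:**
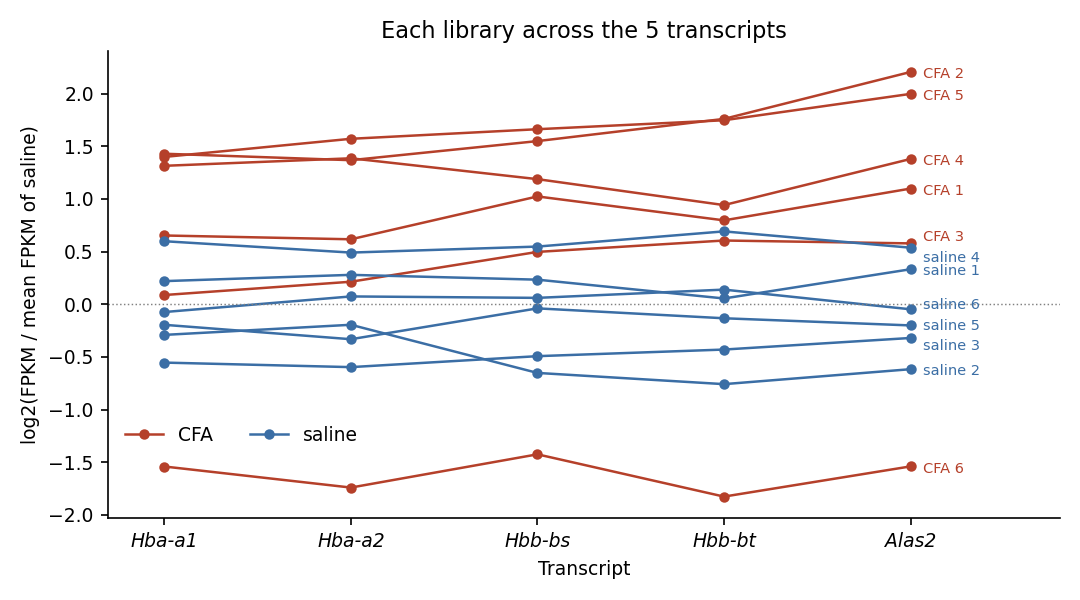
Each line is a library and each point is its log2 ratio to the saline mean FPKM, for the 5 transcripts along the horizontal axis; CFA is red and saline blue. CFA 2, 4 and 5 are highest and CFA 6 is at the bottom throughout. Not all lines are level: that of CFA 2 rises from Hba-a2 to Alas2, and that of saline 2 is lower in the beta than in the alpha transcripts.

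Because the 5 moved together, their proportions varied far less than their levels. Alpha over beta transcript, the summed FPKM of Hba-a1 and Hba-a2 over that of Hbb-bs and Hbb-bt, was 67.9% ± 10.0 in CFA and 77.6% ± 11.5 in saline libraries (SD, n = 6 each). The log2 of this ratio had an SD of 0.22 over all 12 libraries. The highest value was 99.9% in saline 2, where every other saline library lay between 68.2 and 77.5%. Hba-a2 was 16.3% ± 1.53 of Hba-a1 in CFA and 16.2% ± 1.29 in saline libraries, and Hbb-bt was 11.8% ± 1.98 of Hbb-bs in CFA and 12.2% ± 1.08 in saline libraries (SD, n = 6 each). Alas2 was 2.34% ± 0.457 of Hbb-bs in CFA and 2.01% ± 0.175 in saline libraries, with the highest value, 3.15%, in CFA 2. In all 4 proportions the CFA and saline ranges overlapped, and no test was made of them.

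CFA 6 was lowest in all 5 transcripts but not in all of these proportions. Its alpha over beta ratio was 71.2% and its Alas2 was 1.85% of its Hbb-bs, both inside the saline range. Its Hba-a2 share of Hba-a1, 14.0%, and its Hbb-bt share of Hbb-bs, 9.34%, were the lowest of the 12 libraries.

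Other transcripts of red cells were near the floor. Of 18 genes largely restricted to red cells and their precursors, 17 were in the table and 1 reached the filter, Epor, the erythropoietin receptor gene, at 1.97 ± 0.456 FPKM in CFA and 2.21 ± 0.277 FPKM in saline libraries (SD, n = 6 each; log2 difference -0.12, limma adjusted p = 0.828). The next most abundant were Tal1, Trim58 and Klf1, with means of at most 0.298 FPKM in CFA and 0.331 FPKM in saline libraries. Gata1 and Kel, a blood group gene, were listed at 0 in all 12 libraries. Slc4a1, the anion exchanger of the red cell membrane, which is named here after its values were seen, reached at most 0.303 FPKM in CFA and at most 0.188 FPKM in saline libraries. The summed level of the 17 was 2.43 to 3.78 FPKM in CFA and 2.75 to 3.63 FPKM in saline libraries, and CFA 6, with 3.32 FPKM, was 5th highest of 12.

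Among 10 other globin genes 2 reached the filter, and neither passed the test. Hba-x, Hbb-bh1, Hbb-bh2 and Hbb-bh0, genes of the embryonic alpha and beta clusters, were listed at 0 in all 12 libraries, and Hbb-y, an embryonic beta gene, had at most 2 recovered reads. Neuroglobin, Ngb, a globin of neurons, was 25.4 ± 6.84 FPKM in CFA and 30.1 ± 2.75 FPKM in saline libraries (SD, n = 6 each; log2 difference -0.27, limma adjusted p = 0.694). Cytoglobin, Cygb, was 21.8 ± 1.46 FPKM in CFA and 23.3 ± 2.15 FPKM in saline libraries (log2 difference -0.09, limma adjusted p = 0.779). Across the 12 libraries r with Hbb-bs was -0.20 for Cygb and -0.00044 for Ngb, given as a description.

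None of the genes of heme synthesis, heme breakdown or iron handling on the lists passed the test. Of 13 heme synthesis genes 12 were tested, 7 were positive and 5 negative, none passed by limma, 1 had an unadjusted p under 0.05, and the median log2 difference was 0.02. Alas1, the ubiquitous counterpart of Alas2 and also named after its values were seen, was 7.21 ± 0.519 FPKM in CFA and 7.93 ± 0.388 FPKM in saline libraries (SD, n = 6 each; log2 difference -0.12, limma adjusted p = 0.603). Fech, ferrochelatase, which inserts iron into the heme ring, was 16.7 ± 0.631 FPKM in CFA and 16.2 ± 0.814 FPKM in saline libraries. Of 11 genes of heme breakdown and clearance 7 were tested, with 3 positive and 4 negative, 1 at an unadjusted p under 0.05 and a median of -0.02. Of 13 genes of iron uptake, storage and export 10 were tested, with 7 positive and 3 negative, 0 at an unadjusted p under 0.05 and a median of 0.04. Fth1, the ferritin heavy chain, was 1670 ± 377 FPKM in CFA and 1456 ± 282 FPKM in saline libraries. Of 8 red cell genes that brain cells also use, such as Bpgm, which makes the hemoglobin ligand bisphosphoglycerate, 6 were positive and 2 negative, with a median of 0.06, 1 at an unadjusted p under 0.05 and none called. Over all genes tested the median was -0.00427, 7.67% had an unadjusted p under 0.05 and 0.0300% were called.

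Markers of other blood cells were close to 0 in both groups. The summed level of 11 platelet genes was 1.89 to 2.70 FPKM in CFA and 1.78 to 3.05 FPKM in saline libraries, and 0 of them reached the filter. That of 13 neutrophil genes was 1.78 to 2.92 against 1.82 to 3.36 FPKM, that of 11 lymphocyte genes 1.26 to 3.60 against 1.92 to 3.94 FPKM and that of 6 monocyte genes 0.338 to 0.778 against 0.297 to 0.550 FPKM, CFA first. None of these genes was at 0 in all 12 libraries, and 2 reached the filter, Csf3r and Ighm. CFA 6, the lowest library in globins, was the 3rd highest in the platelet, neutrophil and lymphocyte sums and the highest in the monocyte sum.

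Vessel markers varied little beside the globins. The summed level of 16 endothelial genes was 153 to 175 FPKM in CFA and 151 to 163 FPKM in saline libraries, with 156 FPKM in CFA 6; 15 were tested, 8 positive and 7 negative, with a median of 0.04, 4 at an unadjusted p under 0.05 and none called by limma. Pericyte and smooth muscle genes, 11 in all, summed to 63.0 to 84.1 FPKM in CFA and 63.0 to 76.4 FPKM in saline libraries. Over the 9 tested the median log2 difference was -0.07, with 2 at an unadjusted p under 0.05 and none called. Of all genes tested 7.67% had an unadjusted p under 0.05 and 0.0300% were called. CFA 6 was the 7th highest of 12 in the endothelial sum and the 11th in the mural sum. Single endothelial genes, named here after their values were seen, went both ways. CFA 6 was the lowest of 12 in Flt1, Abcb1a, Tie1 and Kdr. It was the 2nd highest in Ly6a, the 3rd in Ly6c1, the 5th in Slc2a1 and the 6th in Vwf, and between 8th and 11th in the rest of the 16. The endothelial adhesion gene Pecam1 had r = 0.507 with Hbb-bs (permutation p = 0.0914, adjusted p = 0.195; rho 0.392, permutation p = 0.21, adjusted p = 0.28), and r = 0.163 without CFA 6 and CFA 5, 0.679 within CFA and -0.231 within saline libraries.

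**Figure D5:**
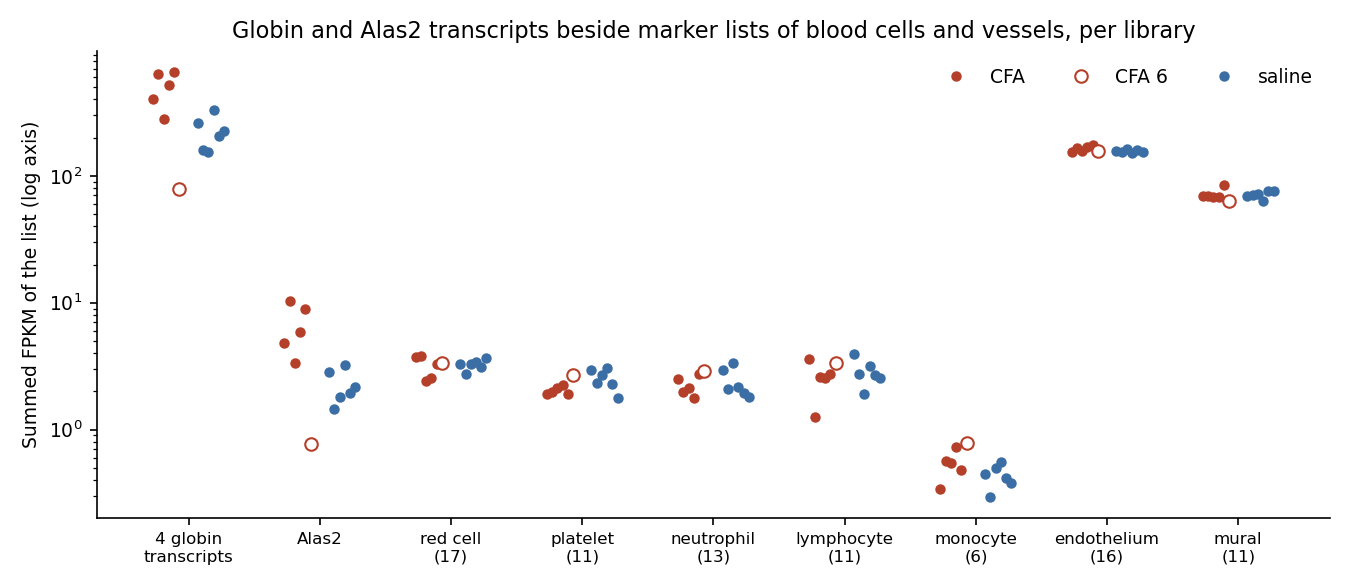
Summed FPKM per library, on a log axis, of the 4 globin transcripts, of Alas2 and of marker lists for red cells, platelets, neutrophils, lymphocytes, monocytes, endothelium and mural cells (pericytes and smooth muscle), with the number of genes summed; CFA is red, saline blue and CFA 6 an open circle. Globins and Alas2 spread widely and CFA 6 is lowest there, while the endothelial sum stays between 151 and 175 FPKM and CFA 6 is not the lowest in any other blood cell list.

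Libraries also differed in the levels of tissue markers. The summed level of the 9 lateral septum markers was 532 to 698 FPKM in CFA and 609 to 717 FPKM in saline libraries, and CFA 6 was the lowest of the 12; all 9 had negative differences, with a median of -0.13, 0 at an unadjusted p under 0.05 and none called by limma. The summed level of 10 markers of striatal projection neurons was 125 to 470 FPKM in CFA and 130 to 250 FPKM in saline libraries, and CFA 6, at 325 FPKM, was the 2nd highest; all 10 had positive differences, with a median of 0.51, 1 at an unadjusted p under 0.05 and none called by limma. That of 12 choroid plexus markers was 53.4 to 120 FPKM in CFA and 61.6 to 2738 FPKM in saline libraries, with saline 3 and saline 5 high in Ttr, at 2259 and 701 FPKM. The 7 choroid plexus markers tested all had negative differences, with a median of -0.41, 0 at an unadjusted p under 0.05 and none called by limma. Without saline 3 and saline 5 the log2 difference was 0.44 for Hba-a1, 0.41 for Hba-a2, 0.70 for Hbb-bs, 0.63 for Hbb-bt and 0.76 for Alas2. Of 9 microglia genes tested 3 were positive and 6 negative, with a median of -0.09. Among the 9, 6 had an unadjusted p under 0.05 and 1 was called by limma, Ctss. Over all genes tested 48.0% were positive, 7.67% had an unadjusted p under 0.05 and 0.0300% were called. Of 4 meningeal genes 2 were positive, and the 1 border macrophage gene tested was positive at 0.05. Xist, transcribed from the inactive X chromosome, was above 1 FPKM in 5 of 6 CFA libraries, CFA 6 among them, and in 2 of 6 saline libraries. With Xist as a covariate the log2 difference was 0.89 for Hbb-bs (limma adjusted p = 0.871) and 0.87 for Alas2 (limma adjusted p = 0.826). The part of tissue, sex and blood content in each other's values was not tested, and in bulk tissue fewer cells of a type and less RNA per cell cannot be told apart.

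No other gene ranked followed Hbb-bs as closely as the other 4 did. Among 11989 genes, with predicted genes, Riken clones and named pseudogenes left out, 0 had r over 0.9 with Hbb-bs over the 12 libraries and 4 had r over 0.8, where the lowest of the other members was 0.967. The highest was Zfp366, a zinc finger gene, with r = 0.890, at 2.32 ± 0.517 FPKM in CFA and 1.82 ± 0.337 FPKM in saline libraries (SD, n = 6 each). It was followed by Limch1 (r = 0.829), Washc5 (r = 0.805), Ptar1 (r = 0.801), Ttc21b (r = 0.799), Tepsin (r = 0.798), Macf1 (r = 0.791), Nup50 (r = 0.785), Atp6v0a2 (r = 0.776) and Scaf8 (r = 0.775). These r are the highest of all genes ranked and are given as a ranking, with no test.

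Hbb-bs was also set beside the 4 genes that passed the threshold between the groups. Across the 12 libraries r with Hbb-bs was 0.482 for Mpeg1 (permutation p = 0.114, adjusted p = 0.195; rho 0.601), 0.342 for Ctss (permutation p = 0.273, adjusted p = 0.363; rho 0.420), -0.484 for Wdfy1 (permutation p = 0.112, adjusted p = 0.195; rho -0.510) and -0.402 for Nrip2 (permutation p = 0.193, adjusted p = 0.289; rho -0.413). Without CFA 6 and CFA 5 these r were 0.762, 0.618, -0.785 and -0.749. Within CFA libraries r was 0.262 for Mpeg1, -0.138 for Ctss, -0.561 for Wdfy1 and 0.275 for Nrip2, and within saline libraries it was 0.214, -0.355, -0.0295 and -0.654 in the same order. With Hbb-bs as a covariate 4 genes passed by limma, of which 1, Wdfy1, was among these 4 (log2 difference -1.32, adjusted p = 0.000826). In that fit Mpeg1 had a log2 difference of 0.37 (adjusted p = 0.0514), against 0.38 without the covariate. Ctss had 0.50 (adjusted p = 0.0514), against 0.48 without it, and Nrip2 had -0.42 (adjusted p = 0.105), against -0.42 without it. Recovered reads per library had r = 0.275 with Hbb-bs (permutation p = 0.386, adjusted p = 0.463), Ttr -0.164 (permutation p = 0.612, adjusted p = 0.668) and the striatal receptor gene Drd2 0.029 (permutation p = 0.93, adjusted p = 0.93).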

How the data were processed

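RNA was harvested with Trizol and libraries from 0.2 µg were sequenced as paired reads of 150 bases, per the labels' protocols. Alignment was to mm10 with HISAT2 2.0.5, per the submitters' processing notes. Counter, strand setting and annotation release were not given in the sources used here. FPKM values per library and gene lengths are as the authors deposited them. A further 6 value columns, in a second table, matched no sample and were not used. FPKM times gene length took whole steps, and 100% of the recovered reads lay within 0.01 of a whole number. The implied divisor was 0.990 to 1.03 times their sum, for a reason not given.

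Genes with at least 1 FPKM in at least 6 libraries were compared on the log2(FPKM + 1) scale, which understates changes of low genes, with limma 3.58.1 (R 4.3.3) and its mean-variance trend. Tests were two-sided, p-values were adjusted by Benjamini-Hochberg over 13345 genes, and the threshold was 0.05. Fold changes are CFA minus saline. FPKM is not a count, so voom on recovered reads was an alternative. The members and the 18 gene lists were chosen with earlier results of these data known. Named were the 5 members, up to 4 genes of each list by mean level, every list gene past the threshold, the 10 genes with the highest r with Hbb-bs, and Mpeg1, Ctss, Wdfy1 and Nrip2 for their relation to it. Pecam1, Xist, Hbb-y, and the genes named as at 0 or as chosen after their values were seen fall outside this rule. The fit was tested on simulated reads. Promoters are from RefSeq (GRCm38.p6; 5 of 5 members matched) and transcripts from GENCODE M21. Other steps ran in Python 3.11.15 with scipy 1.17.1, numpy 2.4.6, pandas 2.3.3 and matplotlib 3.10.9. Alternatives covered pseudocount, filter, scaling, variance model, covariates and left-out libraries.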

Additional observations from a re-analysis of the deposited data

Results flagged for a closer look

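The alpha over beta transcript ratio of saline 2 stood far from the other saline libraries. On the log2 scale it was -0.0019 in saline 2, with the next saline library at -0.37 and the lowest at -0.55. The gap exceeded Dixon's 95% limit for a group of 6, which chance exceeds in about 1 of 20 groups, and 20 groups of values were checked.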

How the results depend on the processing

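Left aside is the fit with Hbb-bs as a covariate, whose values for the 5 are not reported here. In every other alternative that gave a value, the 5 transcripts each had a positive log2 difference and an adjusted p above 0.05 by limma. There were 26 such alternatives for each globin gene and 25 for Alas2, which the filter at 5 FPKM removed. Over these alternatives the log2 difference ran between 0.43 and 1.02 for Hba-a1, 0.41 and 1.02 for Hba-a2, 0.62 and 1.23 for Hbb-bs, 0.52 and 1.18 for Hbb-bt and 0.64 and 1.18 for Alas2, with adjusted p between 0.212 and 0.933. The highest values came without CFA 6. Leaving out 1 library at a time gave between 1 and 11 genes past the threshold, against 4 with all libraries: 11 without saline 3, 10 without CFA 1, 2 without saline 2 or saline 4, and 1 without saline 5 or CFA 6. The count was 2 without a filter, 2 without the mean-variance trend, 1 with Xist as a covariate and 1 with a replicate block. Why these counts changed was not tested. The replicate numbers pair no libraries by the labels; same-numbered libraries deviated together with r over 0.1 in 2 of 6 pairs, CFA 1, 4 and 5 correlated best with their own number, and under the replicate block Hbb-bs had 0.80 (adjusted p = 0.657). Medians of the heme synthesis, heme clearance, endothelial and meningeal lists lay near 0 and changed sign in 2, 4, 1 and 7 of 16 alternatives.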
